A study of Mus musculus with 4 samples.

Results

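The genes described here are 10 members of the Fc receptor and immunoreceptor signalling system of macrophages, namely Fcgr1, Fcgr2b, Fcgr3, Fcgr4, Fcer1g, Fcgrt, Tyrobp, Hcst, Syk and Trem2. They were taken by name, and all 10 were found by symbol among the 40213 gene symbols of the files. All 10 passed the filter on low values, as did 11588 genes in all. The cells were RAW264.7, a tumour-derived mouse macrophage line, so that every value comes from 1 cell line and not from primary macrophages. Gel (2 libraries) and CuNZ@Gel (2 libraries) are the groups given by the sample titles, both at 48 h, and they are read here as hydrogel without and with CuNZ. The treatment label of all 4 libraries names CuNZ@Gel, so the titles alone set the groups apart, and no label spells out CuNZ. Whether the replicates were separate cultures is not stated, so p-values measure only the spread between these libraries.

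Fc receptors bind the constant part of antibodies and let a macrophage take up or respond to coated particles. The activating receptors for IgG in the mouse, encoded by Fcgr1, Fcgr3 and Fcgr4, carry no signalling motif of their own and pair with the common gamma chain Fcer1g, which holds an immunoreceptor tyrosine-based activation motif (ITAM). Tyrobp (DAP12) is an ITAM adaptor for Trem2 and many other myeloid receptors, and Hcst (DAP10) is a related adaptor whose motif recruits phosphoinositide 3-kinase. Src family kinases phosphorylate the ITAM, the kinase Syk then docks on it, and the inhibitory receptor encoded by Fcgr2b opposes the signal.

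Values are scaled CPM, that is, CPM divided by 1 further factor per library, with no division by gene length. Recovered totals were 13718000 to 14881000 reads per library. Libraries of the same group correlated across genes at a Pearson r of 0.995, against 0.930 to 0.939 for libraries of different groups, and genes are not independent replicates. All 8 macrophage markers were detected, 5 raised and 1 lowered, beside 32.2% and 34.8% of all tested genes. Their summed levels were 6172 and 6376 scaled CPM in Gel and 9654 and 9386 in CuNZ@Gel. Lyz2 went from a mean of 3079 to 5888, while Cd68 fell from 1003 to 857 and Mpeg1 and Spi1 did not pass. What part the difference in summed levels has in the results was not tested. The 5 NK cell markers and the 6 mast cell and basophil markers were listed at 0 in every library, including Fcer1a and Ms4a2, the other chains of the IgE receptor. Markers of B cells summed to 0.435 to 2.02 scaled CPM, those of neutrophils to 0.156 to 0.952, those of fibroblasts to 0.126 to 0.311 and those of dendritic cells to 1.33 to 2.335. The T cell markers summed to 17.2 and 19.9 in Gel and 27.9 and 28.8 in CuNZ@Gel, nearly all of it from Cd28, while Cd3e, Cd3g and Cd2 were listed at 0. In bulk RNA, fewer cells of a type and less RNA per cell cannot be told apart.

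In CuNZ@Gel, 3 of the 10 members were raised (Fcgr4, Fcgr3 and Syk), 5 were lowered (Hcst, Tyrobp, Fcgr1, Fcer1g and Trem2), and Fcgr2b and Fcgrt did not pass the test. The falls of Fcer1g and Trem2 did not pass once the values were corrected for transcript length and GC content. The same limma test called 67.1% of all tested genes, 32.2% raised and 34.8% lowered, so a call on its own sets no member apart. Raised genes made up 48.1% of all calls, and 63.6% with libraries scaled by total reads only, which shifts the median of all genes by 0.18 on the log2 scale. The groups did not overlap for the 8 called members, as for 83.2% of all tested genes. The median log2 change of the members was -0.25, against -0.03 over all tested genes. Log2 changes are on the log2(scaled CPM + 1) scale and are followed by their standard error, and a change passed at an adjusted p under 0.05 over all tested genes. Fcgr4 had a larger log2 change than 95.8% of all raised genes, and Hcst a larger fall than 92.0% of all lowered genes. Fcgr3 and Syk lay near the middle of the raised genes, above 39.6% and 41.3% of them. Against a minimum change of 1.5-fold, which 16.9% of all tested genes passed, 1 member was raised (Fcgr4, background 8.76%) and 3 were lowered (Fcgr1, Tyrobp and Hcst, background 8.11%). A log2 change of at least 1 was reached by Fcgr4 among the raised members, as by 7.06% of all tested genes, and by Hcst among the lowered ones, as by 6.12%. With total reads only, 4 members were raised and 4 lowered, where 43.3% and 24.8% of all tested genes were. Limma-voom on the recovered reads called 7721 genes, and it raised 3 members and lowered 5 where 31.7% and 34.9% of all tested genes were called.

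**Figure D1:**
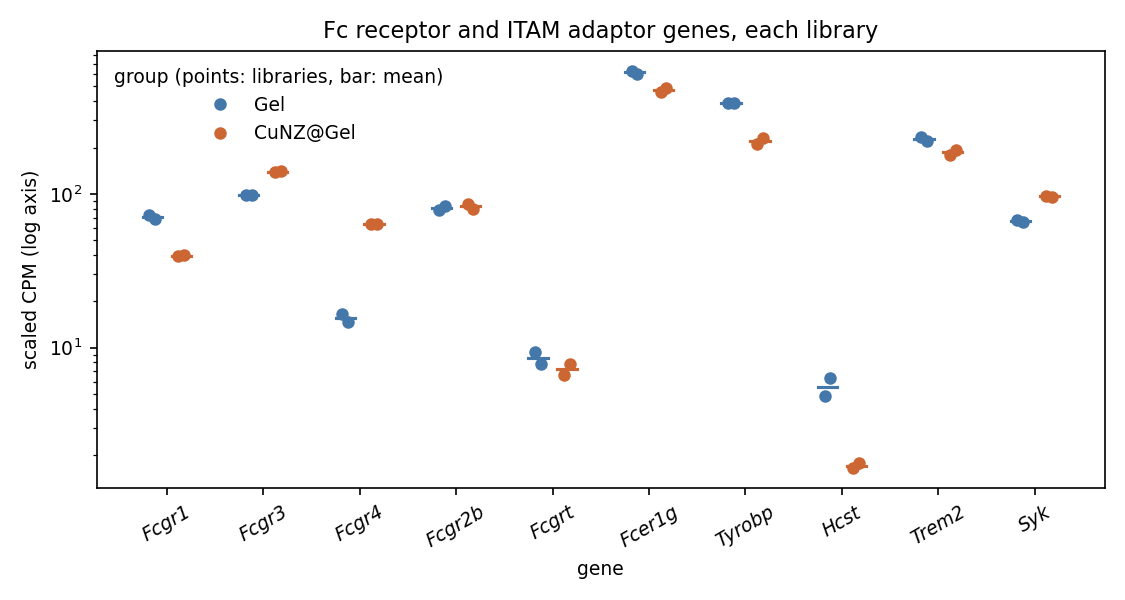
Scaled CPM (log axis) of the 10 members in each of the 4 libraries, with blue points for Gel, orange points for CuNZ@Gel and a bar at each group mean. Fcgr4 stood at 16.6 and 14.6 in Gel and at 64.0 and 63.7 in CuNZ@Gel, while the points of Fcgr2b and Fcgrt overlapped between the groups.

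The IgG receptors moved in different directions. Fcgr4, an activating receptor of intermediate affinity, was at 16.6 and 14.6 scaled CPM in the Gel libraries and at 64.0 and 63.7 in the CuNZ@Gel libraries. Its mean thus went from 15.6 ± 1.38 to 63.8 ± 0.191 (SD, n = 2 per group), a 4.09-fold rise with a log2 change of 1.97 ± 0.10 (limma adjusted p = 2.375e-13). Fcgr1, the high-affinity receptor that binds single IgG molecules, was at 72.8 and 68.1 scaled CPM in Gel and at 39.2 and 40.0 in CuNZ@Gel. It fell by 0.82 ± 0.08 on the log2 scale (limma adjusted p = 1.56e-08), and both CuNZ@Gel libraries lay far below both Gel libraries.

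Fcgr3, a low-affinity activating receptor, was at 97.7 and 97.8 scaled CPM in Gel and at 138 and 141 in CuNZ@Gel. Its log2 change was 0.51 ± 0.07 (limma adjusted p = 8.12e-07), a 1.43-fold rise. Fcgr2b, the only inhibitory receptor of this family, was at 78.8 and 83.9 scaled CPM in Gel and at 86.1 and 80.1 in CuNZ@Gel. The groups overlapped, and the log2 change of 0.03 ± 0.07 did not pass (limma adjusted p = 0.7385), with a 95% interval from -0.12 to 0.18. With total reads only Fcgr2b was called raised, at 0.216, close to the shift of the median of all genes. The parts of Fcgr2b and Fcgr3 that bind IgG are close copies, and how reads common to both were counted is not given in the sources used here, so the split between these genes is uncertain.

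Fcgr2b, Fcgr4 and Fcgr3 lie in this order on chromosome 1 in RefSeq (GRCm38.p6), and Fcgr1 lies on chromosome 3. The sequences upstream of these 4 genes are shown because Fcgr4 and Fcgr3 were raised and Fcgr1 was lowered, while Fcgr2b did not pass. Each line gives the 250 bases before the first listed start site, read 5′ to 3′ on the gene's strand, from the RefSeq promoter table with GRCm38.p6 coordinates. Capitals mark matches on either strand to GAGGAA, a core bound by PU.1, the macrophage factor encoded by Spi1, which reads TTCCTC on the other strand.
Fcgr4, chr1:171018676-171018925, plus strand: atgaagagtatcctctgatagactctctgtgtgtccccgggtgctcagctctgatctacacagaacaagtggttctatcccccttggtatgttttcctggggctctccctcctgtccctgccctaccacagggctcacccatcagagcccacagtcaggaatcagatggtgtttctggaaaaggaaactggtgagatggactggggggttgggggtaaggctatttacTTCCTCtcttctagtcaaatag
Fcgr3, chr1:171059404-171059653, minus strand: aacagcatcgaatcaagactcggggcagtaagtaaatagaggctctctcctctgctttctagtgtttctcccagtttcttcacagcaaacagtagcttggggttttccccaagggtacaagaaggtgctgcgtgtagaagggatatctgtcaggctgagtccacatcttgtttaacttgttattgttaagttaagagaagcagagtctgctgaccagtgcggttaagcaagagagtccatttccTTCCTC
Fcgr1, chr3:96293970-96294219, minus strand: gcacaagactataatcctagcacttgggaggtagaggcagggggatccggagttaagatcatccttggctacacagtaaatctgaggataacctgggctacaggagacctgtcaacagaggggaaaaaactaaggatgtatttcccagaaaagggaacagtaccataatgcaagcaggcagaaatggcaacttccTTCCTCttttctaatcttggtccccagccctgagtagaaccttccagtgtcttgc
Fcgr2b, chr1:170976072-170976321, minus strand: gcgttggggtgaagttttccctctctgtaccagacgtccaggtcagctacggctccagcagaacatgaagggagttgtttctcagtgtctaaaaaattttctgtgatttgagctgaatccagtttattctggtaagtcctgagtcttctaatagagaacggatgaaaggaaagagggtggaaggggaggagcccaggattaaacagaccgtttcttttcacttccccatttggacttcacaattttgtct
Fcgr4, Fcgr3 and Fcgr1 each held 1 such match, starting 22, 6 and 55 bases before the start site, and Fcgr2b held none. The raised Fcgr4 and Fcgr3 and the lowered Fcgr1 thus hold the same letters. The table held a window of 250 bases before to 50 after a start for 9 of the 10 members, all but Tyrobp. A match was found for 5 of these 9 (Fcgr1, Fcgr3, Fcgr4, Trem2 and 1 of the start sites of Syk), and for 28.3% of all 32851 windows. Members are counted per gene, with a match at any start site enough, while all windows are counted singly. Fcgr3 and Syk had more than 1 window, so the counts are in unlike units. The letters TTCNNNGAA, the form of a STAT site, occurred in Fcgr1 alone among the 9, and in 8.30% of all windows. Spi1 was at 211 ± 8.93 scaled CPM in Gel and 199 ± 13.4 in CuNZ@Gel and did not pass (log2 change -0.08, limma adjusted p = 0.267). In the fit corrected for length and GC content Spi1 was called raised, at 0.20.

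The make-up of the activating receptors shifted accordingly. Levels of different genes are compared per length, as scaled CPM per kb of the longest protein-coding transcript in GENCODE vM21. By that measure Fcgr4 gave 11.6% and 10.5% of the summed activating receptor signal in the Gel libraries and 30.2% and 29.7% in the CuNZ@Gel libraries. Fcgr1 gave 24.7% and 23.8% in Gel and 8.98% and 9.03% in CuNZ@Gel, while Fcgr3 gave most of the sum in every library, from 60.8% to 65.7%. In Gel the per-kb level of Fcgr1 (27.2 ± 1.29) was above that of Fcgr4 (12.4 ± 1.10), and in CuNZ@Gel the order was turned, at 15.3 ± 0.215 against 50.8 ± 0.152. The log2 ratio of Fcgr4 to Fcgr1 rose by 2.87 between the groups, and that of Fcgr3 to Fcgr1 by 1.35. Such ratios within a library do not depend on how libraries are scaled.

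**Figure D2:**
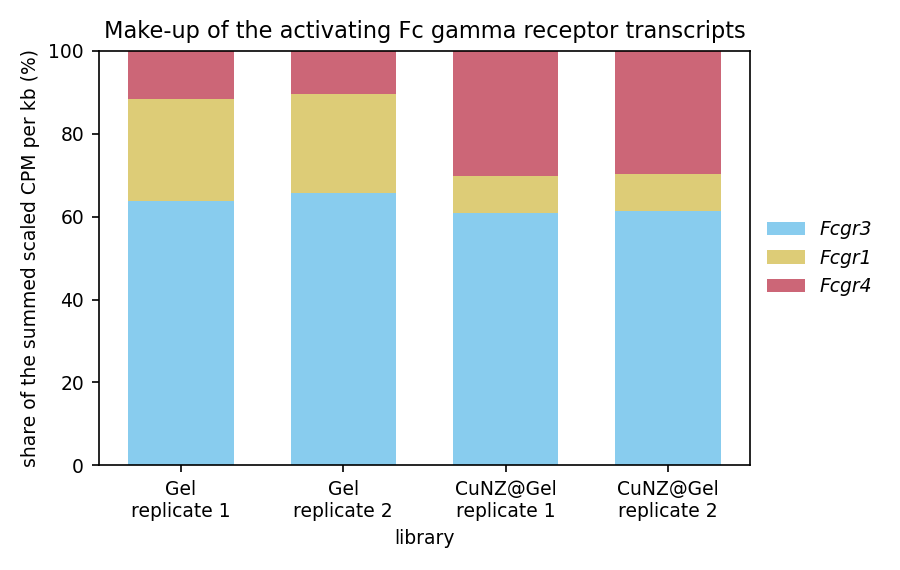
Share (%) of Fcgr3, Fcgr1 and Fcgr4 in their summed scaled CPM per kb, 1 stacked bar per library. Fcgr4 takes 10.5% to 11.6% in Gel and 29.7% to 30.2% in CuNZ@Gel, and the share of Fcgr1 is lower in both CuNZ@Gel libraries.

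The sum of the 3 activating receptors over Fcgr2b, in scaled CPM, was 2.37 and 2.15 in Gel and 2.80 and 3.06 in CuNZ@Gel. Both CuNZ@Gel libraries were higher, by 1.295-fold on average. The same ratio per kb had a mean of 4.895 ± 0.317 for Gel and 7.25 ± 0.447 for CuNZ@Gel (SD, n = 2). An exact two-sided permutation test over the 4 libraries gave p = 0.333 for both forms, the smallest value that 2 libraries against 2 allow.

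Fcgrt encodes the neonatal Fc receptor, which pairs with beta-2 microglobulin and returns IgG from endosomes to the surface. It was at 9.35 and 7.785 scaled CPM in Gel and at 6.68 and 7.81 in CuNZ@Gel, on 229 reads in each group. The groups overlapped, and the log2 change of -0.21 ± 0.15 did not pass (limma adjusted p = 0.2185, 95% interval from -0.53 to 0.10). Its partner B2m was at 1115 ± 8.21 and 1040 ± 35.7 scaled CPM and did not pass (log2 change -0.10, limma adjusted p = 0.138). In the corrected fit B2m was called raised, at 0.12, and Fcgrt stood at 0.04.

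The adaptors were lower in CuNZ@Gel. Fcer1g was the most abundant member per kb in both groups, at 906 ± 28.5 and 697 ± 31.2. In scaled CPM it was at 633 and 605 in Gel and at 461 and 491 in CuNZ@Gel, without overlap. Its log2 change was -0.38 ± 0.06 (limma adjusted p = 1.08e-05). In the fit corrected for length and GC content the value was 0.001 and no longer passed (limma adjusted p = 0.987).

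Tyrobp, the DAP12 chain, was at 391 and 390 scaled CPM in Gel and at 210 and 232 in CuNZ@Gel. It fell by 0.82 ± 0.06 on the log2 scale (limma adjusted p = 2.735e-10), a fall as large as that of Fcgr1. With the length and GC correction it fell by 0.38 (limma adjusted p = 8.09e-07). Hcst, the DAP10 chain, was the member with the fewest reads, 67 and 81 in Gel and 26 and 28 in CuNZ@Gel. Its level was 4.86 and 6.31 scaled CPM in Gel and 1.64 and 1.78 in CuNZ@Gel, a 3.27-fold lower mean. The log2 change was -1.27 ± 0.18 (limma adjusted p = 3.13e-06), and with the correction it was -0.75 (limma adjusted p = 0.00145). The pseudocount of 1 shrinks this change, which was -1.64 with a pseudocount of 0.1. Tyrobp and Hcst are neighbours on chromosome 7 in RefSeq (GRCm38.p6) without overlap of their gene bodies. Klrk1, the NKG2D receptor that signals through Hcst, had 0 reads in Gel and 1 in CuNZ@Gel.

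Trem2, a lipid-sensing receptor that signals through Tyrobp, was at 235 and 222 scaled CPM in Gel and at 179 and 194 in CuNZ@Gel. Its log2 change of -0.29 ± 0.06 passed (limma adjusted p = 4.78e-04) and is the smallest called change among the members. It did not pass with total reads only (-0.10, limma adjusted p = 0.170) or after the length and GC correction (0.105, limma adjusted p = 0.0619). Tyrobp fell further than Trem2: the ratio of their scaled CPM was 1.67 and 1.76 in Gel and 1.17 and 1.19 in CuNZ@Gel. The ratio of Fcer1g to the summed activating receptors was 3.38 and 3.35 in Gel and 1.91 and 2.005 in CuNZ@Gel. The exact two-sided permutation test again gave its smallest p of 0.333 for both ratios.

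Syk, the kinase that docks on phosphorylated ITAMs, was at 67.7 and 65.9 scaled CPM in Gel and at 97.4 and 95.5 in CuNZ@Gel. Its log2 change was 0.52 ± 0.07 (limma adjusted p = 1.68e-06), a 1.44-fold rise with no overlap. The log2 ratio of Syk to Fcer1g, a long and a short transcript, rose by 0.91. In the fit corrected for length and GC content Syk stood at 0.38 and Fcer1g at 0.001. Per kb Syk was far below the ITAM adaptors Fcer1g and Tyrobp, at 12.5 ± 0.248 in Gel and 17.98 ± 0.2405 in CuNZ@Gel.

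In Gel the per-kb order of the members was Fcer1g, Tyrobp, Trem2, Fcgr3, Fcgr1, Fcgr2b, Hcst, Syk, Fcgr4 and Fcgrt. In that group Hcst (12.6 ± 2.32), Syk (12.5 ± 0.248) and Fcgr4 (12.4 ± 1.10) did not differ beyond their spread. In CuNZ@Gel the order was Fcer1g, Tyrobp, Trem2, Fcgr3, Fcgr4, Fcgr2b, Syk, Fcgr1, Fcgrt and Hcst, in which Fcgrt (4.09 ± 0.451) and Hcst (3.865 ± 0.222) lay within their spread. Fcgr4 therefore passed from near the bottom of the list to the fifth place. It stood at 50.8 ± 0.152, well below Fcgr3, the next above it in order, at 104 ± 1.64.

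Transcript length moved with these results. Over the tested genes of known length, change and length on log2 scales had a Pearson r of 0.308, a correlation across genes, which are not independent replicates. In the shortest 10% of genes (up to 1180 bases) 14.2% were raised and 58.8% fell, the median being -0.42. The longest 10% held 63.1% raised and 13.7% lowered genes. Hcst (442 bases), Tyrobp (597), Fcer1g (683) and Trem2 (1088) all fall among the shortest 10%, and Hcst and Tyrobp lay below the median of that group while Fcer1g and Trem2 lay above it. Fcgr4 (1256 bases) and Fcgr3 (1347) fall in the next group of that size, where 19.4% of genes were raised, and Fcgr1 (2589) in the fifth such group, whose median was -0.07. Syk (5363 bases) falls in the ninth, where 48.2% were raised. With the correction, 3 members stayed raised (Fcgr4 at 2.18, Fcgr3 at 0.73 and Syk at 0.38) and 3 stayed lowered (Hcst, Fcgr1 at -0.74, and Tyrobp), where 65.6% of all genes were called, 30.2% raised and 35.4% lowered.

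**Figure D3:**
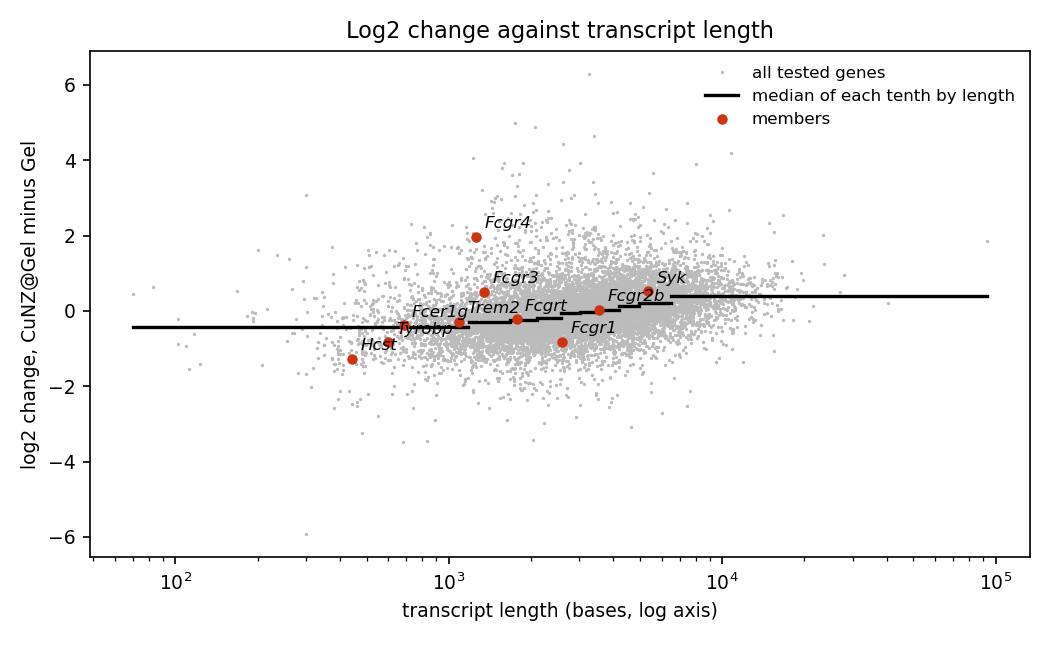
Log2 change of CuNZ@Gel against Gel (vertical axis) by transcript length in bases (log axis) for the tested genes with a known length (grey), with black bars at the median of each 10% of genes by length and the members in red. The medians climb from -0.42 to 0.38, and Fcgr4 lies far above and Hcst, Tyrobp and Fcgr1 below the bars at their lengths.

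**Figure D4:**
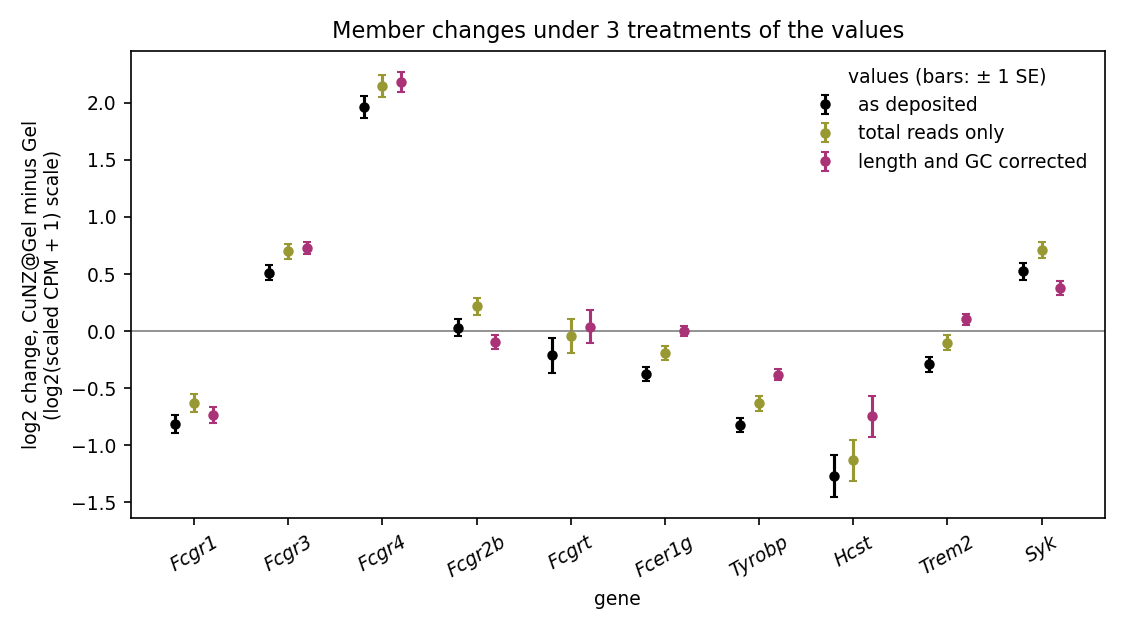
Log2 change of each member, CuNZ@Gel minus Gel, with bars of 1 standard error, for the values as deposited, for libraries scaled by total reads only, and with the length and GC correction. Fcer1g and Trem2 move to 0.001 and 0.105 with the correction, while Fcgr4 stays near 2 in all 3.

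Most tested receptors linked to these adaptors or to Syk were raised. The list holds chiefly partners of Fcer1g, Tyrobp or Hcst, but also Clec7a and Clec1b, which carry a tyrosine motif of their own, and Csf1r, a receptor tyrosine kinase. Of 28 such genes found in the files 12 did not reach the filter. Treml4, Clec4n and Trem1 reached it through the CuNZ@Gel libraries alone and Siglech through the Gel libraries alone, so that the filter itself favoured their direction. Of the 12 genes that reached it in both groups, 11 were raised and none lowered (median 0.56), where 30.6% of all genes treated in this way were raised and 36.0% lowered (median -0.05). Over all 16 tested, 14 were raised and none lowered (median 0.62, background 32.2% and 34.8%), and 13 of 14 were raised when Clec7a and Csf1r were left out. After the length and GC correction the count over the 16 was again 14 raised and none lowered, against 30.2% and 35.4% of all genes. Treml4, Clec4n and Trem1, whose direction the filter favoured, are among these 14. Treml4, a receptor of the Trem family that pairs with Tyrobp, rose from 0.891 ± 0.380 to 58.1 ± 0.695 scaled CPM, with 24 reads in Gel and 1836 in CuNZ@Gel. The C-type lectin receptor genes Clec4n (Dectin-2) and Clec4d, both users of Fcer1g, rose from 0.718 ± 0.195 to 27.45 ± 1.575 and from 51.3 ± 4.78 to 482 ± 13.0. Csf1r, the receptor for the macrophage growth factor CSF1, rose from 569 ± 17.6 to 747 ± 4.765. Clec7a and Siglech did not pass (log2 changes -0.10 and -0.48).

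Most other Fc receptor genes had few or no reads: of 13 genes in the files, B2m included, 10 did not reach the filter, and Fcer1a, Ms4a2 and Fcrl6 were listed at 0 in all 4 libraries. Of the 3 tested, Fcrl1, an Fc receptor-like gene best known from B cells, went from 31.3 ± 1.74 up to 84.5 ± 2.345 scaled CPM, and its log2 change was 1.405 ± 0.08 (limma adjusted p = 3.69e-12). The B cell gene Ms4a1 was listed at 0 in the same libraries. Trim21, a cytosolic antibody receptor, was at 4.17 ± 1.38 and 3.64 ± 0.420 and did not pass. Of 6 ITAM chains of lymphocyte receptors, Cd247 alone was tested, and it reached the filter through the CuNZ@Gel libraries alone, so its raised call on 3 and 37 reads is given as a description. With 5 scaled CPM as the filter it is not tested.

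Src family kinases and their regulators were raised in 4 of 10 tested cases and lowered in 4 (median -0.10), near the 32.2% and 34.8% of all tested genes. Src rose from 5.61 ± 0.763 to 18.6 ± 0.942 scaled CPM, and the phosphatases Ptprj and Ptprc (CD45), which activate these kinases, rose by 0.93 and 0.64 on the log2 scale. The kinase gene Lck fell by 0.75, and Csk, the kinase that switches the family off, fell by 0.40. Fgr did not pass, at 22.0 ± 2.39 and 20.9 ± 0.236 scaled CPM. Lyn, the chief Src family kinase of many myeloid cells, rose from 148 ± 6.94 to 211 ± 11.2.

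Downstream of Syk, 21 of 36 tested kinases, adaptors and effectors were raised while 8 were lowered (median 0.27), beside 32.2% and 34.8% of all tested genes (median -0.03). Fyb, an adaptor bound by Lcp2 (SLP-76), rose from 124.5 ± 0.984 to 365 ± 7.17 scaled CPM. Pik3ap1, which links receptors to phosphoinositide 3-kinase, and the catalytic subunit gene Pik3cb rose 2.15-fold and 2.12-fold. The catalytic subunit genes Pik3cd and Pik3ca fell by 0.25 and 0.16, but did not pass with total reads only (-0.065 and 0.026). Blnk, the adaptor of the B cell pathway that macrophages also use, fell by 0.80, Card9, which carries the Syk signal to NF-kB, fell by 0.69, and Grb2 fell by 0.32. With total reads only the counts were 26 raised and 2 lowered, beside 43.3% and 24.8% of all tested genes, and Grb2 no longer passed (-0.13). Without Gel replicate 1 or CuNZ@Gel replicate 2 the lowered count was 5 or 4.

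Regulators of the actin cup that forms around a coated particle included 12 raised and 5 lowered genes of 24 tested (median 0.16), all by less than 1 on the log2 scale. The shares over all tested genes were 32.2% and 34.8%. The GTPase gene Cdc42 rose by 0.52, Myo10, a myosin of membrane protrusions, by 0.57 and Elmo1, which helps to activate Rac, by 0.40. Coro1a, an actin-binding coronin, fell by 0.78, and the GTPase genes Rac2 and Rhog fell by 0.37 and 0.46. Without Gel replicate 1 the counts were 7 raised and 3 lowered, and 3 were lowered also without Gel replicate 2 and without CuNZ@Gel replicate 1. With total reads only 17 were raised and 3 lowered, beside 43.3% and 24.8% of all tested genes. After the length and GC correction Rhog did not pass (-0.11). Cdc42 (0.54), Myo10 (0.27) and Elmo1 (0.14) were still raised in that fit, and Coro1a (-0.48) and Rac2 (-0.33) still lowered. With the replicate block added to the correction Elmo1 did not pass.

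The list of inhibitors of ITAM signalling held 15 raised and 6 lowered genes of 22 tested (median 0.59). Over all tested genes the shares were 32.2% and 34.8%. Pilra and Pecam1 reached the filter through the CuNZ@Gel libraries alone, and without them 13 of 20 were raised and 6 lowered (median 0.47), beside 30.6% and 36.0% of all genes that reached it in both groups. After the length and GC correction 11 of 21 were raised and 4 lowered, beside 30.2% and 35.4%. Pilra and Pecam1, whose direction the filter favoured, are among these 11. Lilrb4a, an inhibitory receptor, and Lilrb4b rose from 437 ± 16.3 to 1199 ± 37.6 and from 94.0 ± 8.41 to 341 ± 0.167 scaled CPM. The list counts Lilrb4b, although an inhibitory role is not established for it. Lilrb4a and Lilrb4b are near-identical copies, so the division of reads between them is uncertain. Pilra, an inhibitory receptor for sialylated proteins, rose from 0.676 ± 0.0345 to 12.02 ± 1.135 (on 18 and 380 reads). Sirpa, the receptor of the CD47 signal, fell from 686 ± 1.68 to 470 ± 16.8, and Clec12a and Dok1, an inhibitory lectin and an adaptor, fell by 0.57 and 0.82.

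The list of Trem2 ligands and of the proteases that cut Trem2 also holds the lipase gene Lpl. Of its 10 genes, 5 were raised and 4 lowered (median 0.13), beside 32.2% and 34.8% of all tested genes. Apoe, a lipid carrier bound by Trem2, fell from 38.05 ± 3.17 to 5.57 ± 0.241 scaled CPM, whereas Clu (clusterin) rose from 1.83 ± 0.279 to 9.46 ± 0.446 and the lipase gene Lpl from 446 ± 4.82 to 1343 ± 27.0. Adam17, one of the sheddases, rose by 0.66. The gamma-secretase genes Psen2 and Psenen fell by 0.77 and 0.29, and Psenen did not pass with total reads only (-0.11) or after the length and GC correction (0.11). Without CuNZ@Gel replicate 1 the counts were 3 raised and 2 lowered, and without Gel replicate 1 there were 2 lowered. With total reads only 6 were raised and 2 lowered, beside 43.3% and 24.8% of all tested genes.

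**Figure D5:**
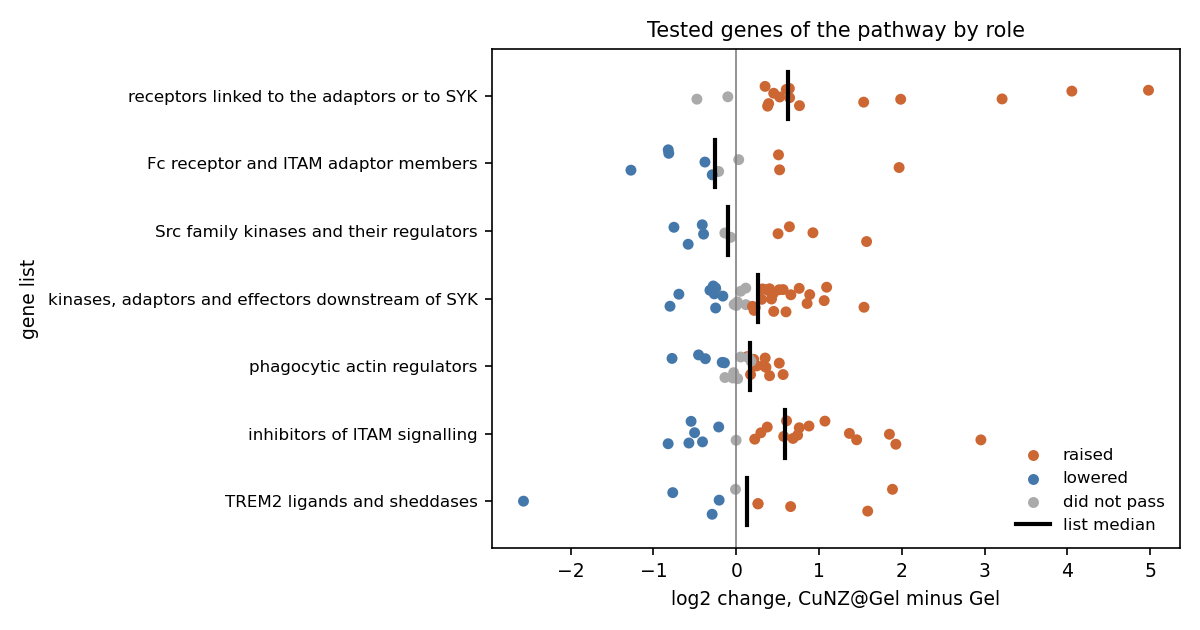
Log2 change of every tested gene in 7 gene lists ordered by role, with orange points raised, blue points lowered, grey points that did not pass, and a black bar at each list's median. The medians run from -0.25 for the members to 0.62 for the receptors linked to the adaptors or to Syk, where no point is blue. These receptors include Treml4, Clec4n and Trem1, which reached the filter through CuNZ@Gel alone, and Siglech, which reached it through Gel alone. The median over the other 12 was 0.56.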

How the data were processed

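RNA sequencing was done on 4 libraries of RAW264.7 cells with the CORALL RNA-seq V2 kit, per the labels' protocols. The mouse build was GRCm39 and the tools named are STAR, Salmon, fastp and GATK, per the submitters' processing notes. Their versions and settings, the annotation and any use of strand were not given in the sources used here. The deposited files hold 1 log2 value per gene symbol and library. Checked on the values, they are log2(x + 1), where x is CPM divided by 1 further factor per library (0.936 to 1.07, close to TMM factors). Between 92.6% and 93.5% of values up to 1 scaled CPM fell within 0.02 of a whole number of reads, which gave the read numbers and totals.

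Groups were taken from the sample titles. The test was limma 3.58.1 (R 4.3.3) with a mean-variance trend on the deposited log2 values of the 4 libraries, with group as the only term, for genes at 1 scaled CPM or more in at least 2 libraries. P-values were adjusted by Benjamini-Hochberg over all tested genes, with a threshold of 0.05. The fit was tested on simulated data. The tried alternatives were a pseudocount of 0.1, no filter, a filter at 5, relative log expression and upper-quartile scaling, total reads only and limma-voom on recovered reads. Further ones were leaving out each library, a replicate block, a correction for transcript length and GC content (GENCODE vM21, 95.8% of tested genes matched) and a minimum fold of 1.5. A crossed replicate block, and list counts without genes that reached the filter through 1 group (with fewer than 2 libraries of the other at 1 scaled CPM) or without receptors that have their own motif or kinase, were added after the data were seen.

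The members and gene lists were chosen with earlier results of these data known. Named genes were all members, up to 3 raised and 3 lowered genes with the smallest p from each list, and B2m, Csf1r and Spi1. Clec7a, Clec1b, Siglech, Trem1, Pecam1, Klrk1, Trim21, Fgr, Lyn, Pik3cd and Pik3ca were named after their values were seen. Promoter sequences came from RefSeq (GRCm38.p6). Some genes that this rule names are not reported here.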

Additional observations from a re-analysis of the deposited data

How the results depend on the processing

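With 2 libraries per group the spread rests on few libraries, and Hcst, Fcgrt and Cd247 on few reads. Across the alternatives Fcgr4, Fcgr1, Tyrobp and Hcst kept their direction and call, except that Hcst is not tested with the filter at 5 scaled CPM. With libraries left out in turn the same test called 6515 to 7064 genes, and every member kept its call. List counts then ranged from 4 to 7 lowered downstream of Syk, 7 to 10 raised and 3 to 4 lowered for actin regulators, and 3 to 5 raised and 2 to 4 lowered for Trem2 ligands and sheddases. Where 1 library of a group remains, it is assumed to vary like the other group.

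Against a minimum change of 1.5-fold 1955 genes passed, 1015 raised (8.76% of all tested genes) and 940 lowered (8.11%). Of the members 1 was raised and 3 lowered, and Fcgr3 (0.51), Syk (0.52), Fcer1g (-0.38) and Trem2 (-0.29) did not pass. The list counts that follow stand beside these shares of 8.76% and 8.11%. Of 16 tested partner receptors 6 were raised. The 16 include Treml4, Clec4n and Trem1, which reached the filter through the CuNZ@Gel libraries alone, so that the filter favoured their direction. Of 10 Src family genes 2 were raised and 0 lowered, and of 36 genes downstream of Syk 5 were raised and 1 lowered. Of 24 actin regulators 0 were raised and 1 lowered, and of 22 listed inhibitors 7 were raised and 0 lowered. The 22 include Pilra and Pecam1, which also reached the filter through the CuNZ@Gel libraries alone. Counts at this fold without such genes were not made. Of 10 Trem2 ligands and sheddases 2 were raised and 1 lowered, and the 1 tested lymphocyte ITAM chain was not raised.

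With the length and GC correction, alone and with the replicate block, 3 members were lowered. Fcer1g (0.001), Trem2 (0.105), Psenen (0.108), Spi1 (0.20), B2m (0.118), Fcgr2b (-0.093) and Fcgrt (0.038) then changed sign in both fits. Fcgr2b and Fcgrt passed in neither, and B2m passed only without the block. Without the block 2 other Fc receptors were raised, and the folds of the ratios became 1.601 for activating receptors over Fcgr2b and 0.6666 for Fcer1g over activating receptors. With no filter, counts became 2 raised other Fc receptors, 1 lowered partner receptor, 2 lowered Trem2 ligands and sheddases and 2 raised lymphocyte ITAM chains. With the filter at 5 there were 0 of the last, as fewer genes are tested, and likewise 0 without genes that reached the filter through 1 group, an alternative added after the data were seen. Limma-voom on recovered reads gave 1 lowered partner receptor. With total reads only, lowered counts were 2 downstream of Syk, 3 for actin regulators and 2 for Trem2 ligands and sheddases, Fcgr2b (0.216) was called raised and Trem2 (-0.102) was not called. For changes without a stated reason the cause was not tested.

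The labels give both groups the replicate numbers 1 and 2 but no shared origin. The replicate block gave 7489 calls in all and 3 lowered actin regulators, and changed no call of a member. Deviations of same-numbered libraries correlated at -0.116 across genes. The crossed replicate block, chosen after the data were seen, gave 8370 calls and 1 lowered other Fc receptor.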
